A study of Mus musculus with 17 samples.

Results

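The heat shock and unfolded protein response was examined in distant, non-ablated MC38 tumors through 40 genes, chosen by symbol from a list of chaperones, stress sensors and their targets. All 40 were among the 21931 genes of the deposited table, and all passed the filter on low counts that left 13005 genes for testing. Ddit3 was listed under 2 identifiers, of which the second had 0 counts in all 17 tumors and was not used. The genes fell into 16 chaperones, foldases and degradation factors of the endoplasmic reticulum (ER), 5 sensors and transcription factors, 5 targets of the integrated stress response, 11 cytosolic heat shock genes, 2 mitochondrial chaperonins and the collagen chaperone Serpinh1.

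Bulk RNA was sequenced from 9 tumors of the control group (Con) and 8 of the cryoablation group (Cryo). These groups are those of the sample labels, and the text of the study gives the group sizes the other way round. Both groups were C57BL/6J mice, 6-8 weeks old and of WT genotype, that carried tumors of the mouse colon cancer line MC38 under the skin of both sides. In the Cryo mice the tumor of one side was frozen with a cryoprobe on day 7 in 2 cycles, for 20 s each by the sample labels and for a longer time by the methods, and the tumor of the other side was taken 5 days later. The Con mice are labelled only as control, and the labels number the tumors as separate replicates without naming the mice, so that p values measure the spread between these tumors. Total counts were 14154687 to 17898672 in Con (median 16048176) and 13524899 to 16847050 in Cryo (median 15130145).

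The unfolded protein response begins at sensors in the ER membrane. IRE1 (gene Ern1), ATF6 and PERK (gene Eif2ak3) respond to unfolded protein, and through XBP1, cleaved ATF6 and ATF4 they raise chaperones such as BiP (gene Hspa5) and, under lasting stress, the transcription factor CHOP (gene Ddit3). The heat shock response is a separate program in which HSF1 raises the cytosolic HSP70 and HSP40 chaperones, and it is also known to be triggered when tissue is handled or warmed. Both programs are commonly active in growing tumors, whose cells make much protein under short supply of oxygen and amino acids.

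Promoter elements known for these programs were searched by their letters, and matches are shown for some of the genes. None was found for Ddit3, Manf, Hspa1a or Hspa1b. Promoter windows of RefSeq (GRCm38.p6, 250 bases before to 50 bases after the start) were matched for 33 of the 40 genes, in 38 windows. The ER stress element, searched on both strands as CCAAT and CCACG with 9 bases of any kind between them, was in the windows of 7 genes (Hspa5, Calr, Hsp90b1, Canx, Pdia6, Dnajc3 and Creld2) and in 0.119% of all 32851 windows. The capitals mark the element, which is printed as its reverse complement where it lies on the other strand.
Hspa5 (chr2:34772005-34772063, + strand, element 65 to 47 bases before the start): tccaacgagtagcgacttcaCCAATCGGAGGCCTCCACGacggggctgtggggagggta
Hsp90b1 (chr10:86705513-86705571, - strand): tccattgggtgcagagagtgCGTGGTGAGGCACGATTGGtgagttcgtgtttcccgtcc
Pdia6 (chr12:17266471-17266529, + strand): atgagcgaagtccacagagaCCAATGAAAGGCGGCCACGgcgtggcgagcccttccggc
Creld2 (chr15:88819500-88819558, + strand): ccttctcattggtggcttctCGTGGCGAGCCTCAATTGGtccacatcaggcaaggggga

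The second form of this element, ATTGG and CCACG with 1 base between them, was in the windows of Herpud1 and Dnajb11 and in 0.0365% of all windows. A heat shock element, searched as GAA, TTC and GAA with 2 bases between each and the next, was in those of Hspd1, Hspe1 and Hsph1 and in 0.603% of all, and an ATF4-type element, TGATG and AA with 1 base between them, in those of Asns, Chac1, Herpud1 and Trib3 and in 3.97% of all. No match means only that these letters were not in the window. Hspd1 and Hspe1 lie head to head on opposite strands of chromosome 1, and the window of Hspe1 shares 285 and 4 bases with the windows of 2 start sites of Hspd1. The Hspe1 window holds 2 overlapping heat shock elements, drawn as 1 run of capitals. They are the same bases as the elements of Hspd1, read from the other strand, and the elements of Hsph1 lie after its start.
Hspe1 (chr1:55088039-55088096, + strand, elements 89 to 72 bases before the start): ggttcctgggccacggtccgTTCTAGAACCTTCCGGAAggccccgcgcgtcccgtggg
Chac1 (chr2:119351029-119351076, + strand, ATF4-type element): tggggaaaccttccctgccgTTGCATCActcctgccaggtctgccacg
Asns (chr6:7693210-7693252, - strand, ATF4-type element): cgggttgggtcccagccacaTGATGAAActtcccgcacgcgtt

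Some tumors stood apart before any group comparison. For each tumor, the log2 level of the 13005 genes relative to the mean of all tumors was regressed on the log2 of the gene length listed in the table. The slope was -0.301, -0.268 and -0.391 per doubling of length in Cryo replicates 2, 4 and 5, whose short genes were therefore high relative to long ones, and between -0.168 and 0.231 in the other 14 tumors. The labels give no reason for this, and values without these 3 tumors stand beside the results below that turn on them. Since all 3 are Cryo tumors, p values without them describe the tumors that were left and are no test of the group difference.

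The 40 genes covered a wide range of levels. Per length, as FPKM (fragments per kilobase of gene, scaled to a common total, computed by the authors), the cytosolic HSP90 gene Hsp90ab1 had a median of 1502 over the 17 tumors, the 11th highest of the whole table. It was followed by the constitutive HSP70 gene Hspa8 at 862 FPKM, the collagen chaperone Serpinh1 at 528 FPKM and the calcium-binding ER chaperone Calr at 382 FPKM. BiP (Hspa5) had a median of 225 FPKM, which ranked 175 in the table. The ER sensors were low, with 6.65 FPKM for Atf6, 4.75 for Eif2ak3 and 3.47 for Ern1, and the stress-inducible Hspa1a was the lowest of the 40 at 1.19 FPKM (range 0.582 to 2.17). Hsp90ab1 was the highest of the 40 in 16 tumors and Hspa1a the lowest in 15. In the order of medians, the higher of 2 neighbouring genes was higher in all 17 tumors for 5 of 39 neighbour pairs (Hspa8 and Serpinh1, Serpinh1 and Calr, Calr and Hsp90aa1, Atf4 and Canx, and Hspe1 and Pdia4), and the ranges of 1 pair (Hspa8 and Serpinh1) did not overlap, so most neighbours did not differ beyond their spread.

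**Figure D1:**
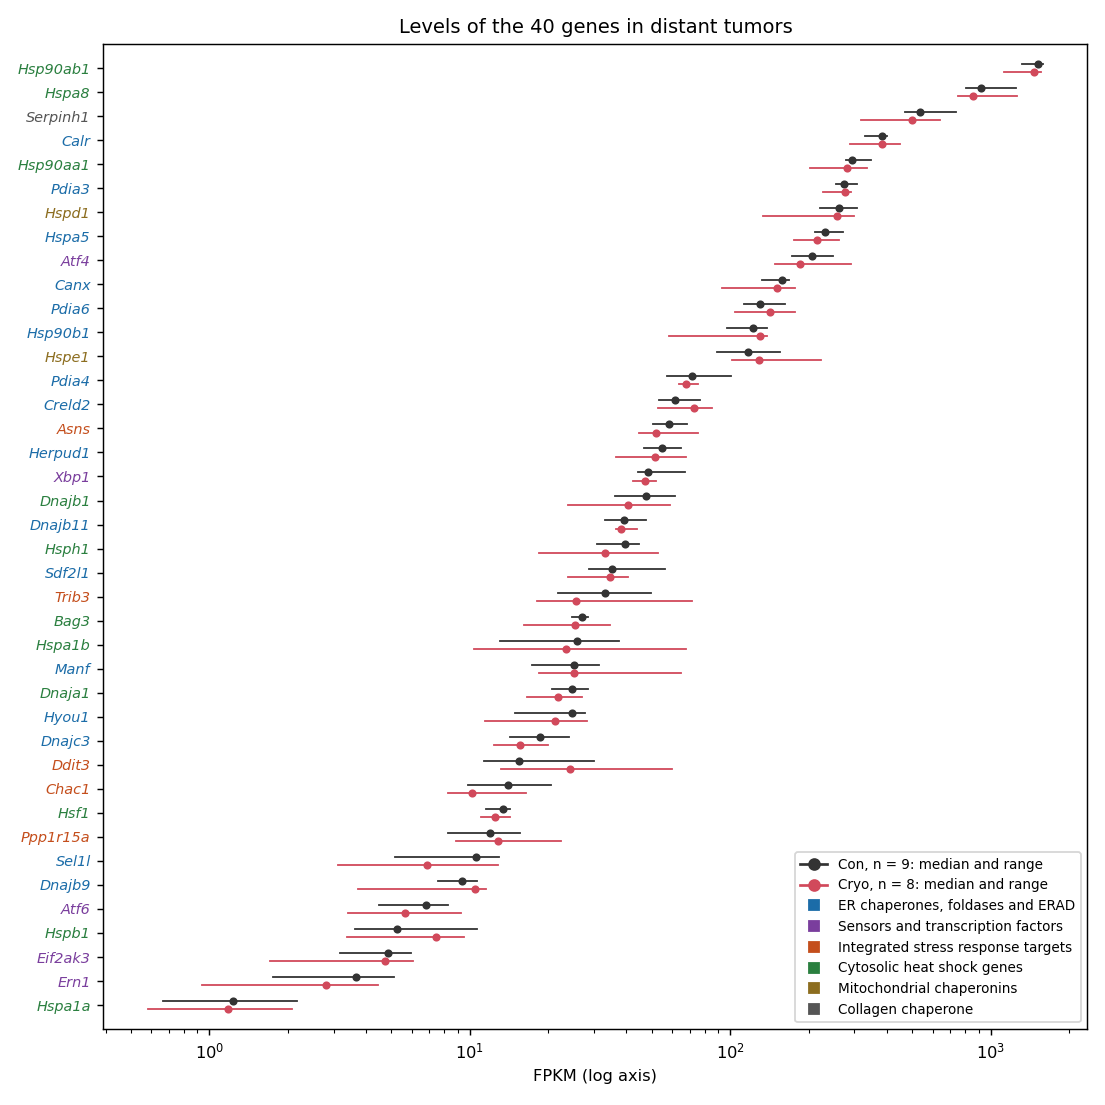
FPKM of the 40 genes on a log axis, with the median (point) and range (line) of 9 Con tumors in black and 8 Cryo tumors in red, and gene names coloured by role. Medians run from 1.19 for Hspa1a to 1502 for Hsp90ab1 over all 17 tumors, and the black and red ranges overlap for every gene.

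The spread between tumors differed between genes as well. In CPM, counts scaled to a common library size with TMM normalization, the highest tumor was 1.25 times the lowest for Hsp90ab1, 1.28 times for Hsp90aa1, 1.36 times for Hspa5 and 1.38 times for the lectin chaperone Canx. At the other end stood Ddit3 with 7.34 times, the inducible HSP70 gene Hspa1b with 5.43 times, the pseudokinase gene Trib3 with 4.62 times and the secreted ER factor Manf with 4.45 times. Hsp90ab1, Hsp90aa1, Hspa5 and Canx were thus near uniform over the 17 tumors, while Hspa8, which is also abundant, varied 2.40 times. All 40 genes together took 1.8% to 2.18% of the counts of a Con tumor and 1.71% to 2.09% of a Cryo tumor.

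Few of the 40 genes differed between the groups, and none after adjustment over all genes. Of the 40 genes, 1 (Ddit3, higher in Cryo) had an unadjusted p under 0.05 by edgeR's quasi-likelihood test, which is 2.5% of them beside 4.91% of the 13005 genes tested. The threshold of the study asks for a change beyond 2-fold in either direction together with an unadjusted p under 0.05, and none of the 40 passed it (0 of 40 by edgeR, by DESeq2 and by limma voom, beside 0.492% of all genes by edgeR). After Benjamini-Hochberg adjustment over all genes, 0 of 40 passed by edgeR (smallest adjusted p = 0.728), 0 by DESeq2 (0.677) and 0 by limma voom (0.414), beside 0 of all 13005 by each of these tools. The unadjusted counts of DESeq2 and limma voom were 2 and 4 of 40, beside 6.77% and 10.1% of all genes, and by the exact permutation test over tumors 0 of 40 had an unadjusted p under 0.05, beside 2.97%. In bulk tumors, fewer cells of a type and less RNA per cell cannot be told apart.

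The differences were small for most of the genes. Of the 40 log2 fold changes (Cryo over Con), 20 were above 0 (48% of all genes tested) and 20 below, with a median of -0.0013 beside -0.0088 for all genes tested, and they ran from -0.39 (Chac1) to 0.90 (Ddit3). The 95% interval of the log2 fold change lay within -0.5 and 0.5 for 26 of the 40 genes (49.9% of all genes tested) and within -1 and 1 for 38 (85% of all). Differences beyond 2-fold were thus outside the interval for all of them but Ddit3 (0.16 to 1.63) and Manf (-0.013 to 1.21).

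**Figure D2:**
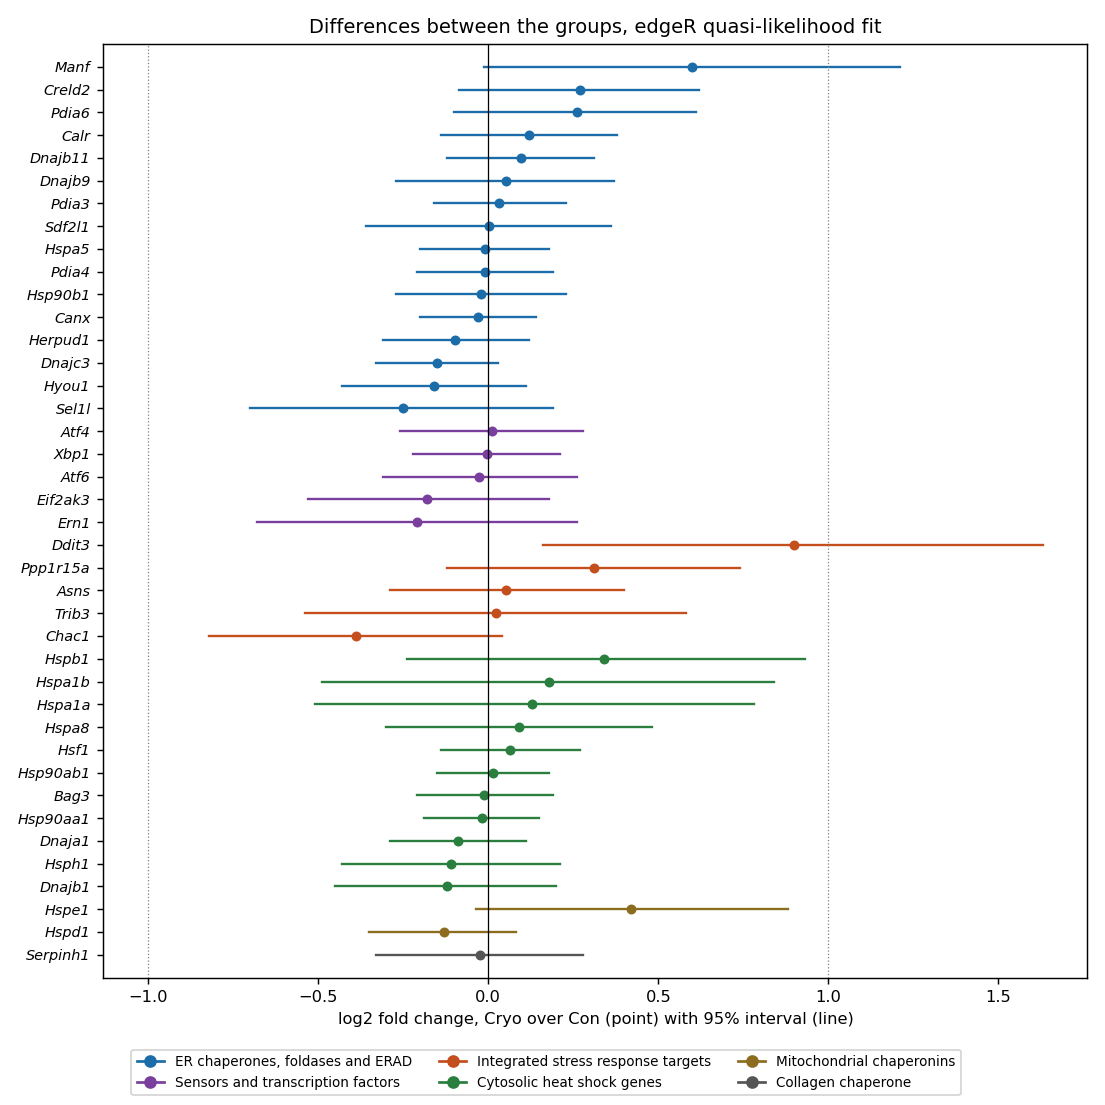
Log2 fold change of each of the 40 genes, Cryo over Con (point), with its 95% interval from the edgeR fit of 9 against 8 tumors (line), grouped and coloured by role. The interval of Ddit3 lies above 0, those of the other 39 genes include 0, and dotted lines mark 2-fold changes.

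Among the ER chaperones and folding enzymes, BiP, the central chaperone of the ER lumen, was at nearly the same level in both groups. Hspa5 (ENSMUSG00000026864) had 840 to 1098 CPM in Con (median 925) and 806 to 1100 CPM in Cryo (median 941). The groups overlapped over almost their whole range, and the log2 fold change was -0.0085 (SE 0.09, 95% interval -0.20 to 0.18, edgeR p = 0.926, adjusted p = 0.976, exact permutation p = 0.901, n = 9 and 8). The lectin chaperones Calr and Canx, the disulfide isomerases Pdia3, Pdia4 and Pdia6, the co-chaperones Dnajb9, Dnajb11, Dnajc3 and Sdf2l1, the HSP90 of the ER Hsp90b1, the ER factors Creld2 and Hyou1, and the degradation factors Herpud1 and Sel1l had log2 fold changes between -0.25 (Sel1l) and 0.27 (Creld2), each with an interval that included 0. With Hspa5 and Manf these 16 genes split into 8 above and 8 below 0, with a median of -0.0038.

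Manf, which encodes a small ER protein that is also secreted, had the largest log2 fold change of the 16, and it was singled out after its values were seen. It had 58 to 117 CPM in Con (median 82.9), and the 8 Cryo tumors had a median of 86.8. The Cryo values fell apart into 5 tumors of 61.7 to 90 CPM, inside the Con range, and replicates 2, 4 and 5 at 189, 258 and 217 CPM, above it. The log2 fold change of 0.60 (SE 0.29, edgeR p = 0.0544, exact permutation p = 0.207) became -0.22 (p = 0.223) without these 3 tumors.

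None of the 5 sensors and transcription factors had an unadjusted p under 0.05 by edgeR, DESeq2 or limma voom. Atf4, the transcription factor gene downstream of PERK and of the other kinases of the integrated stress response, had 384 to 563 CPM in Con (median 469) and 389 to 773 CPM in Cryo (median 439). The 773 CPM of Cryo replicate 4 lay above the Con range, and the other 7 Cryo tumors reached at most 515 CPM. The log2 fold change was 0.011 (SE 0.13, 95% interval -0.26 to 0.28, edgeR p = 0.933, adjusted p = 0.979, exact permutation p = 0.924). Xbp1, whose transcript is spliced by IRE1, had 160 ± 23.2 CPM in Con and 160 ± 22.5 in Cryo (SD, n = 9 and 8), a log2 fold change of -0.0035. Gene counts do not tell the spliced from the unspliced Xbp1 transcript, nor the cleavage of ATF6 or the phosphorylation of PERK, so the activity of these sensors was not measured. Ern1 (log2 fold change -0.21), Eif2ak3 (-0.18) and Atf6 (-0.027) had intervals that included 0.

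Of the targets of the integrated stress response, Ddit3, the gene of the pro-apoptotic transcription factor CHOP, was the one with an unadjusted p under 0.05. Ddit3 (ENSMUSG00000025408) had 18.2 to 55.7 CPM in Con (median 24.9) and 20.7 to 134 CPM in Cryo (median 40.8). Cryo replicates 2, 4 and 5, at 88.6, 70.3 and 134 CPM, lay above the Con range, and the other 5 Cryo tumors, at 20.7 to 51.9 CPM, lay inside it. The log2 fold change was 0.90 (SE 0.35, 95% interval 0.16 to 1.63, edgeR p = 0.0199, adjusted p = 0.728), and the exact permutation test over tumors gave p = 0.0909. Without Cryo replicate 5 alone it was 0.57, no longer with an unadjusted p under 0.05, and without replicates 2, 4 and 5 it was 0.03 (edgeR p = 0.914, exact permutation p = 0.868). The Ddit3 result thus rested on the 3 tumors with the steep length slope. In the edgeR fit with offsets for gene length the log2 fold change was 0.63, still with an unadjusted p under 0.05.

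The other 4 targets had log2 fold changes on both sides of 0. Chac1, which degrades glutathione, had 15.2 to 35.5 CPM in Con (median 21.7) and 13 to 35.3 CPM in Cryo (median 16.1), with a log2 fold change of -0.39 (SE 0.21, edgeR p = 0.0729, exact permutation p = 0.0693). Trib3, an inhibitor of ATF4 and CHOP, had a log2 fold change of 0.022, the asparagine synthetase gene Asns 0.052 and Ppp1r15a, which promotes the removal of the phosphate from eIF2alpha, 0.31, each with an interval that included 0.

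With Cryo replicates 2, 4 and 5 left out, 3 of these targets were lower in the other 5 Cryo tumors than in Con. The tumors left out were all from Cryo and held its highest values of Trib3 and Asns, and replicates 4 and 5 its highest of Chac1. Leaving them out lowers the Cryo level of these genes, so the p values of such fits are not tests of the group difference. Among the other 5 Cryo tumors Chac1 was 13 to 17.7 CPM, Trib3 37.2 to 65.2 CPM and Asns 118 to 147 CPM, and each of the 3 genes was below the Con median in 5 of 5 tumors. The log2 fold change of Chac1 was -0.71 (SE 0.18, edgeR p = 0.00136, exact permutation p = 0.00699), that of Trib3 -0.56 (SE 0.18, p = 0.00761, exact permutation p = 0.021) and that of Asns -0.32 (SE 0.11, p = 0.00737, exact permutation p = 0.0115). They were 3 of 40 genes lower at an unadjusted p under 0.05, or 7.5%, beside 1.15% of the 13250 genes tested in this fit, and Hsp90b1 was the 1 gene higher (0.17, edgeR p = 0.0341, exact permutation p = 0.0145, beside 1.3% of all). After adjustment over all genes none of them passed by edgeR (adjusted p = 0.941). Leaving the 3 tumors out did not remove the length trend, since the slopes of Con replicates 1 and 5 were -0.135 and -0.168, and without them the median log2 fold change of all genes was -0.065 for those shorter than the median length and 0.035 for the others. Chac1, Trib3 and Asns are listed at 1637, 2125 and 2735 bases, under the median of 4467. In an edgeR fit without the 3 tumors and with offsets for gene length, added after these values were seen, the log2 fold changes were -0.57 for Chac1, -0.45 for Trib3 and -0.25 for Asns, each with an unadjusted p under 0.05, beside 1.02% of all genes lower at an unadjusted p under 0.05. In the edgeR fit of all 17 tumors with offsets for gene length, Chac1 was lower with a log2 fold change of -0.56, an unadjusted p under 0.05, whereas Trib3 and Asns had -0.12 and -0.017, each with a p above it. These genes were singled out after their values were seen.

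**Figure D3:**
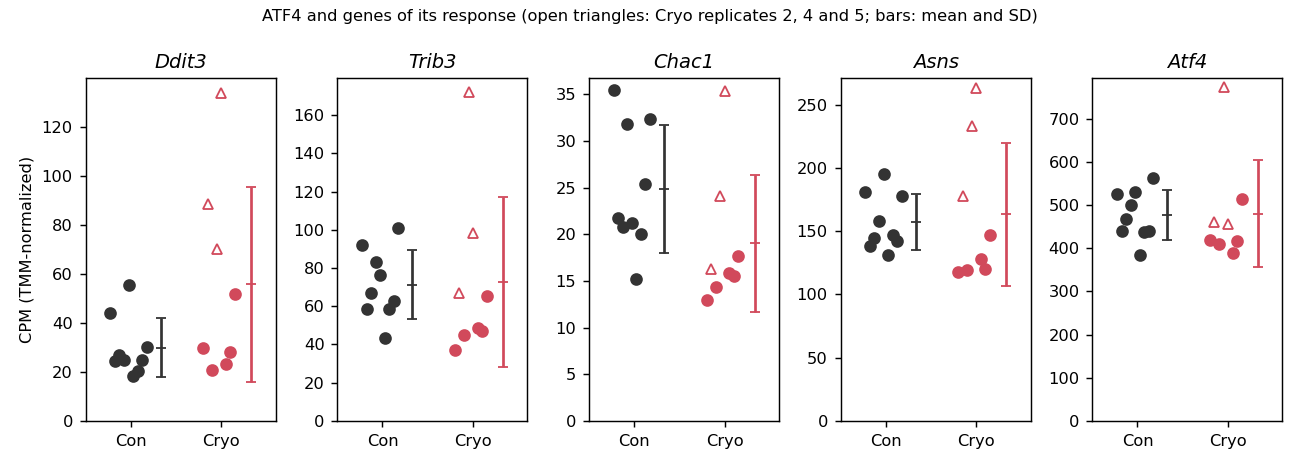
TMM-normalized CPM in each of 9 Con (black) and 8 Cryo (red) tumors for Ddit3, Trib3, Chac1, Asns and Atf4, with mean and SD beside the points; open triangles are Cryo replicates 2, 4 and 5. The triangles hold the highest Cryo values of Ddit3, Trib3 and Asns. For Chac1 those of replicates 4 and 5 are the highest, and replicate 2, at 16.3 CPM, lies below replicate 8 at 17.7 CPM. The other 5 Cryo tumors lie below the Con median for Trib3, Chac1 and Asns.

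The wider list of the integrated stress response held more genes lower than higher in Cryo. Of 30 further genes of this response, which encode amino acid transporters, aminoacyl-tRNA synthetases and enzymes of amino acid synthesis among others, 29 were tested, and 0 were higher and 3 lower at an unadjusted p under 0.05, or 10.3% lower beside 1.17% of all genes. The list's median log2 fold change was -0.067. Slc7a5, a transporter of large neutral amino acids, had 151 ± 16.7 CPM in Con and 116 ± 26.9 in Cryo (log2 fold change -0.38, SE 0.13, edgeR p = 0.0086, exact permutation p = 0.00399). Sesn2, a stress-induced inhibitor of mTORC1 signaling, had 22.8 ± 5.28 and 17.7 ± 2.58 CPM (-0.37, SE 0.14, p = 0.0188, exact permutation p = 0.034). The third gene, Cth of cysteine synthesis, had 10.6 ± 6.86 and 5.27 ± 4.91 CPM (-1.01, SE 0.44, p = 0.0347, exact permutation p = 0.0301) and was named beyond the rule because it completes the count. The adjusted p of all 3 was 0.728 by edgeR. Without Cryo replicates 2, 4 and 5 the count was 7 of 29 lower and 0 higher (beside 1.15% of all genes lower), and 5 lower and 1 (Ddit4) higher when length offsets were added (beside 1.02%). With limma voom, which gives less weight to variable tumors, 12 of 29 were lower (beside 5.36%), with DESeq2 4 (beside 1.61%) and with length offsets 3 (beside 1.08%).

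The cytosolic heat shock genes lay on both sides of 0, with 6 log2 fold changes above 0 and 5 below, a median of 0.013 and 0 of 11 with an unadjusted p under 0.05 by edgeR, DESeq2 or limma voom. Hspa1a, an HSP70 gene that is nearly silent without stress, had 1.85 to 6.87 CPM in Con (median 3.4) and 1.91 to 5.85 CPM in Cryo (median 3.76). All Cryo tumors lay inside the Con range, and the log2 fold change was 0.13 (SE 0.31, 95% interval -0.51 to 0.78, edgeR p = 0.667, adjusted p = 0.874, exact permutation p = 0.735). Hspa1a had 936 counts over all 17 tumors, and changes within its interval were not excluded.

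Hspa1b, its neighbour and near copy, had 35.3 to 112 CPM in Con (median 69.4) and 34.6 to 188 CPM in Cryo (median 61.1). Cryo replicates 7 and 8 lay above the Con range, at 136 and 188 CPM, and replicate 4 just below it. The log2 fold change was 0.18 (SE 0.32, 95% interval -0.49 to 0.84, edgeR p = 0.582, adjusted p = 0.837, exact permutation p = 0.959), and without Cryo replicates 2, 4 and 5 it was 0.56 (p = 0.0632), or 0.63 (p = 0.0376) when length offsets were added. The split of reads between both genes is uncertain, since 68.1% of the 100-base windows of the Hspa1a coding sequence also occur in Hspa1b, and the ratio of Hspa1b to Hspa1a counts ran from 7.15 to 37.3 (median 23.3).

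The more abundant cytosolic chaperones were close to equal. Hsp90ab1 had 4347 ± 301 CPM in Con and 4386 ± 159 in Cryo (log2 fold change 0.013, 95% interval -0.15 to 0.18), and Hsp90aa1 1138 ± 90 and 1123 ± 89.5 CPM (-0.019, -0.19 to 0.15). The co-chaperone Bag3, a target of HSF1 like Hspa1a, had -0.011 (-0.21 to 0.19), and the transcription factor gene Hsf1 itself 0.063 (-0.14 to 0.27). The interval of each of these 4 genes lay within -0.5 and 0.5. The HSP40 genes Dnajb1 and Dnaja1 had log2 fold changes of -0.12 and -0.088, Hsph1 of the HSP110 family -0.11, Hspa8 0.091 and the small heat shock gene Hspb1, which was low at 5.7 ± 2.38 and 7.27 ± 3.36 CPM, 0.34, each with an interval that included 0. Hspa8 and Hspe1 have processed pseudogenes, and how shared reads were counted is not given in the sources used here.

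The partners of the mitochondrial chaperonin, Hspd1 (HSP60) and Hspe1 (HSP10), lay on opposite sides of 0. Hspd1 had 637 to 775 CPM in Con (median 670) and 463 to 750 CPM in Cryo (median 652), and its 3 lowest Cryo values, 530, 506 and 463 CPM, were those of replicates 2, 4 and 5. Hspe1 had 124 to 244 CPM in Con (median 164) and 143 to 371 CPM in Cryo (median 186), and its 3 highest, 307, 371 and 363 CPM, were those of the same tumors. The log2 fold changes were -0.13 (SE 0.10, edgeR p = 0.212, exact permutation p = 0.134) for Hspd1 and 0.42 (SE 0.22, p = 0.068, exact permutation p = 0.156) for Hspe1, and without the 3 tumors 0.022 (p = 0.76) and -0.10 (p = 0.527). Both genes were singled out after their values were seen.

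Serpinh1, the chaperone of collagen in the ER, had 1085 to 1920 CPM in Con (median 1219) and 881 to 1802 CPM in Cryo (median 1245). Replicate 4 and replicate 7 of Cryo, at 881 and 1076 CPM, lay below the Con range, and the others lay inside it. The log2 fold change was -0.024 (SE 0.14, 95% interval -0.33 to 0.28, edgeR p = 0.867, adjusted p = 0.951, exact permutation p = 0.801). None of 10 fibroblast markers had an unadjusted p under 0.05 by edgeR (DESeq2 gave 1, Postn), with a summed level of 7867 to 14055 CPM in Con and 5405 to 10450 CPM in Cryo.

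Of 30 further genes of ER folding and degradation, 29 were tested, with 2 higher and 0 lower at an unadjusted p under 0.05 (6.9% higher, beside 3.74% of all genes) and a median log2 fold change of 0.0078. Both rested on a wide Cryo spread: Fkbp2, a prolyl isomerase of the ER, had 56.2 ± 21 CPM in Con and 103 ± 79.1 in Cryo (log2 fold change 0.88, SE 0.38, edgeR p = 0.0327, exact permutation p = 0.184), and Derl2, a part of the retrotranslocation channel, 78.5 ± 2.88 and 92.2 ± 19 CPM (0.23, SE 0.10, p = 0.0367, exact permutation p = 0.0609). Without Cryo replicates 2, 4 and 5 the count was 0. Of 30 further heat shock and co-chaperone genes, all tested, 0 passed at an unadjusted p under 0.05 by edgeR and by DESeq2 and 1 (Hspa2, higher) by limma voom, with a median log2 fold change of 0.058.

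The larger difference between the groups was in spread. The SD of log2 CPM was larger in Cryo than in Con for 35 of the 40 genes (87.5%), beside 80.2% of all genes tested. With the 5 Cryo tumors other than replicates 2, 4 and 5, it was larger in Cryo for 15 of 40 (37.5%), beside 33.2% of all. The 3 tumors held the highest value for 16 of the 40 genes and the lowest value for 16, or 40% in each case, beside 38.5% and 44.6% of all genes. These shares of the 40 genes were near those of the rest of the table.

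**Figure D4:**
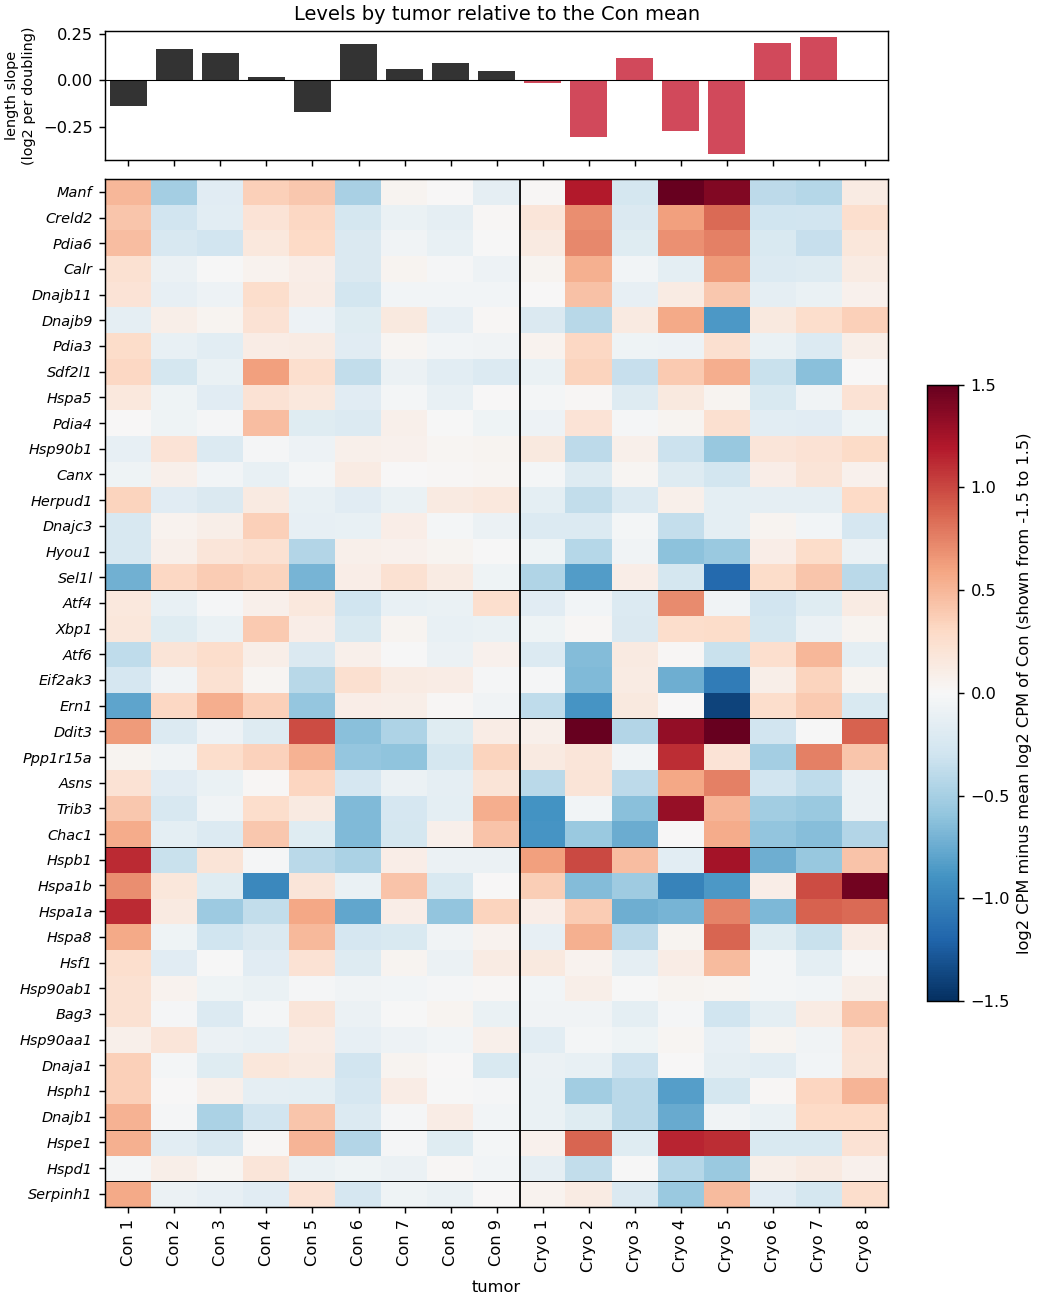
Log2 CPM of the 40 genes in each of the 17 tumors minus the Con mean of the gene, coloured from -1.5 to 1.5, with genes ordered by role and the length slope of each tumor above as bars (black Con, red Cryo). Cryo replicates 2, 4 and 5, with slopes of -0.301, -0.268 and -0.391, are high for Manf, Ddit3 and Hspe1 and low for Hyou1 and Eif2ak3.

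Hspe1, Manf and Ddit3 were chosen because they were high in these 3 tumors. They are listed at 1474, 3524 and 1713 bases, under the median of 4467, and had low values where the length slope of a tumor was high. This is a description, since the slope is computed from all genes, these included. Over 17 tumors, log2 CPM correlated with the slope at r = -0.97 for Hspe1, -0.95 for Manf and -0.92 for Ddit3, and an r at or below these was found for 2.81%, 6.32% and 9.69% of all 13005 genes. Within the 9 Con tumors alone, r was -0.97, -0.91 and -0.88, beside 1%, 8.57% and 10.6% of all genes, and over the 14 tumors without Cryo replicates 2, 4 and 5 it was -0.95, -0.92 and -0.76. Hspd1, listed at 2642 bases, went the other way (r = 0.85), but over the 14 tumors r was 0.45, so this relation rested on the 3.

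The fold changes of the 40 genes divided by listed length as those of all genes did. Of the 30 genes shorter than the median of 4467 bases, 19 had a log2 fold change above 0, and of the 10 longer ones 1 (Hsf1), beside 4101 of 6502 shorter and 2145 of 6503 longer genes over the whole table. With the trend of each tumor over length removed by offsets, the medians of the 40 genes were 0.0099 for the shorter and -0.056 for the longer ones, against 0.027 and -0.13 before. In that fit 4 of the 40 genes had an unadjusted p under 0.05, beside 5.44% of all genes: Ddit3 and Manf with log2 fold changes of 0.63 and 0.59, and Chac1 and Sdf2l1 with -0.56 and -0.25. Hspe1 had 0.18 in place of 0.42, with a p above it.

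Across tumors, the heat shock genes Hspa1a and Dnajb1 varied together in both groups. Of 16 pairs of genes compared over the 17 tumors, Hspa1a and its HSP40 partner Dnajb1 had r = 0.77 (rho = 0.74, permutation p adjusted over the 16 pairs = 0.00248 and 0.0044). It was 0.81 within Con and 0.80 within Cryo, 0.73 without the 2 tumors farthest from the median of Hspa1a (Con replicates 1 and 6), 0.75 after the length trend was removed and 0.84 without Cryo replicates 2, 4 and 5. This pair was thus correlated under each of these choices.

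The other partners of Hspa1a depended more on the choice of tumors. Hspa1a and Hsph1 had r = 0.52 (rho = 0.46, adjusted permutation p = 0.0516 and 0.0907) and 0.43 without the 2 farthest tumors, 0.60 within each group, 0.83 after removal of the trend (adjusted permutation p = 0.00032) and 0.73 without Cryo replicates 2, 4 and 5 (0.00614). Hspa1a and Bag3 had 0.53 (rho = 0.49, adjusted permutation p = 0.0512 and 0.0699), 0.44 without the 2 farthest tumors, 0.73 within Con, 0.42 within Cryo, 0.31 after removal of the trend and 0.79 without Cryo replicates 2, 4 and 5 (0.00261). Hspa1a and Hspa1b, whose reads may be shared, had 0.55 (rho = 0.54, adjusted permutation p = 0.0451 and 0.0476), 0.52 without the 2 farthest tumors (adjusted p = 0.0791), 0.69 within Con, 0.50 within Cryo, 0.57 after removal of the trend (0.0678) and 0.77 without Cryo replicates 2, 4 and 5 (0.00317).

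With the immediate-early gene Fos, which like Hspa1a is known to respond to the handling of tissue, Hspa1a had r = -0.064 (rho = -0.0074, adjusted permutation p = 0.858 and 0.981), 0.049 without the 2 farthest tumors, -0.56 within Con and 0.34 within Cryo. Of 12 immediate-early genes, 1 was higher at an unadjusted p under 0.05 by edgeR and by DESeq2 (Ier2, log2 fold change 0.63, SE 0.26, edgeR p = 0.0273, exact permutation p = 0.0863). This was 8.33% of the list, beside 3.74% of all genes by edgeR and 5.17% by DESeq2. By limma voom 3 were higher, or 25% beside 4.73% of all genes. Without Cryo replicates 2, 4 and 5 Ier2 had a log2 fold change of 0.044, and 2 other genes of the list, Egr1 and Fosb, were higher at an unadjusted p under 0.05. This was 16.7% of the list, beside 1.3% of all genes.

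Pairs of ER stress genes were correlated as well, and these relations changed with the length trend. Hspa5 and its cofactor Sdf2l1 had r = 0.73 (rho = 0.80, adjusted permutation p = 0.00464 and 0.002), 0.73 without the 2 farthest tumors (Con replicate 4 and Cryo replicate 8), 0.89 within Con, 0.59 within Cryo and -0.13 after removal of the trend. Hspa5 and Atf4 had 0.70 (rho = 0.77, adjusted permutation p = 0.00427 and 0.00309), 0.74 without the 2 tumors, 0.71 within Con, 0.73 within Cryo and 0.34 after removal of the trend. Hspa5 and Hspa1a had 0.56 (rho = 0.61, adjusted permutation p = 0.0451 and 0.0219), 0.64 without the 2 tumors, 0.64 within Con, 0.49 within Cryo and 0.49 after removal of the trend (adjusted p = 0.155).

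The 3 pairs were positive within both groups. Of the other large ER chaperones only Hsp90b1 and Hyou1 were paired with Hspa5, which showed no positive relation to either. It had r = -0.22 with Hsp90b1 (rho = -0.31, adjusted permutation p = 0.45 and 0.26), with -0.48 without the 2 farthest tumors, -0.23 within Con, -0.26 within Cryo, -0.25 after removal of the trend and -0.077 without Cryo replicates 2, 4 and 5. With Hyou1 it had -0.45 (rho = -0.52, adjusted permutation p = 0.0971 and 0.0552), with -0.73 without the 2 tumors (adjusted p = 0.0112), -0.46 within Con, -0.52 within Cryo, -0.37 after removal of the trend (adjusted p = 0.398) and -0.41 without Cryo replicates 2, 4 and 5 (adjusted p = 0.214).

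In the ATF4 branch, Atf4 and its target Asns had r = 0.69 (rho = 0.80, adjusted permutation p = 0.00742 and 0.002), 0.60 without the 2 farthest tumors (Con replicate 9 and Cryo replicate 4), 0.91 within Con, 0.64 within Cryo and 0.28 after removal of the trend. Atf4 and Ddit3 had 0.50 (rho = 0.69, adjusted permutation p = 0.0613 and 0.00941), 0.51 without the 2 tumors, 0.77 within Con, 0.50 within Cryo, -0.11 after removal of the trend and 0.73 without Cryo replicates 2, 4 and 5. Ddit3 and Trib3 had 0.60 (rho = 0.68, adjusted permutation p = 0.0274 and 0.0105), 0.69 without the 2 farthest tumors (Cryo replicates 2 and 5), 0.66 within Con, 0.74 within Cryo, 0.30 after removal of the trend and 0.49 without Cryo replicates 2, 4 and 5 (adjusted p = 0.126). The remaining pair of this branch, Ddit3 and Chac1, had 0.34 (rho = 0.40, adjusted permutation p = 0.222 and 0.137), 0.30 without the 2 tumors, 0.43 within Con and 0.80 within Cryo.

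The head-to-head pair Hspd1 and Hspe1 had r = -0.84 (rho = -0.61, adjusted permutation p = 0.00248 and 0.0219), and -0.63 without the 2 farthest tumors (Cryo replicates 4 and 5). It was -0.95 within Cryo and -0.24 within Con, -0.30 without Cryo replicates 2, 4 and 5 (adjusted p = 0.404) and -0.69 after removal of the trend (adjusted p = 0.0163), so the opposite course of these partners rested on the 3 tumors. Serpinh1 and the collagen gene Col1a1 had r = 0.016 (rho = 0.069, adjusted permutation p = 0.953 and 0.846), 0.038 without the 2 farthest tumors, -0.31 within Con and 0.35 within Cryo.

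**Figure D5:**
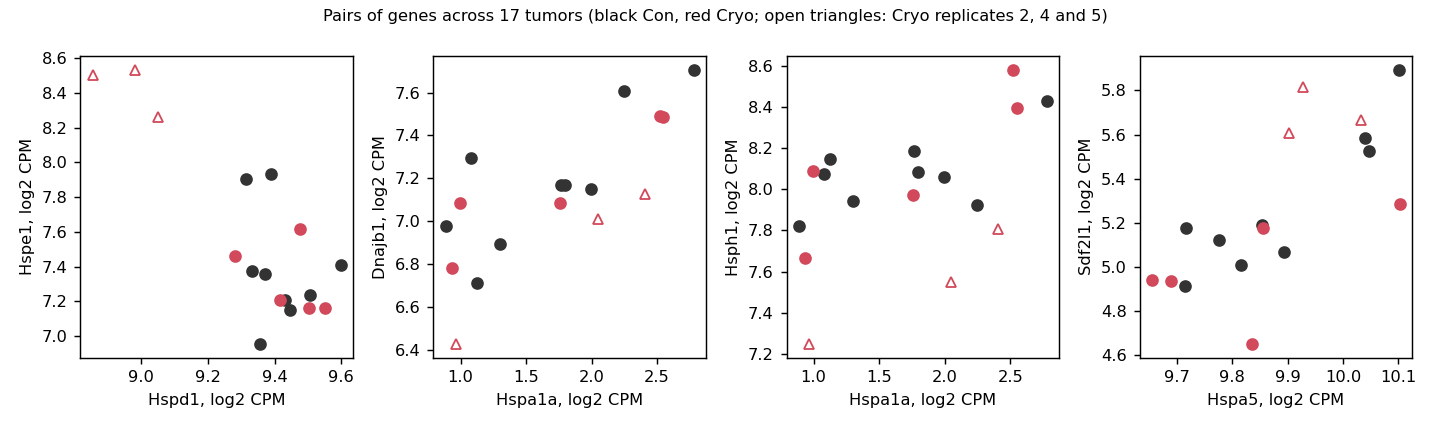
Log2 CPM of Hspe1 against Hspd1, Dnajb1 and Hsph1 against Hspa1a, and Sdf2l1 against Hspa5 in 17 tumors, black for Con and red for Cryo, with open triangles for Cryo replicates 2, 4 and 5. The triangles form the upper left of the Hspd1 and Hspe1 plot (r = -0.84), and in the Hspa1a and Dnajb1 plot (r = 0.77) black and red points share 1 rising band.

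Markers of other cell types were read for what the samples could hold. All 4 erythroid genes tested were higher in Cryo at an unadjusted p under 0.05 by edgeR (summed level 6.16 to 74.6 CPM in Con and 25.1 to 175 CPM in Cryo), and 1 of 4 (Alas2) without Cryo replicates 2, 4 and 5. Of 6 neutrophil genes tested, S100a8 and S100a9 were higher at an unadjusted p under 0.05 by edgeR and by DESeq2 (33.3% of the list, beside 3.74% of all genes by edgeR), with exact permutation p = 0.0554 and 0.127. The summed level of the list was 48.5 to 157 CPM in Con and 69.3 to 122 CPM in Cryo, and Ly6g was at 0 in 11 tumors. Limma voom called Mmp9 in place of both, and without Cryo replicates 2, 4 and 5 the edgeR count was 0 of 7, with log2 fold changes of 0.99 for S100a8 and 1.40 for S100a9. For the plasma cell, a secretory cell rich in ER chaperones, 7 of 10 markers were in the table, with a summed level of 118 to 203 CPM in Con and 90.2 to 149 CPM in Cryo. Most of it was Sdc1, at 77 to 134 CPM, which is also expressed by epithelial cells. Jchain ran from 0.597 to 53.9 CPM in Con and from 1.85 to 19.3 CPM in Cryo, Irf4 reached 11.3 CPM and Prdm1 13 CPM, while Mzb1 reached at most 0.542 CPM, Tnfrsf17 0.324 CPM and Derl3 1.55 CPM in any tumor. Of the 4 tested, 0 passed by edgeR and DESeq2 and 1 (Irf4, lower) by limma voom. Of 10 macrophage markers 1 (Adgre1) was lower by edgeR, 0 passed by DESeq2 and 1 (Mrc1) was lower by limma voom. By edgeR without Cryo replicates 2, 4 and 5, 0 of these 10 passed. Of 10 T and NK cell markers and 8 proliferation genes 0 passed by edgeR or DESeq2 and 1 each by limma voom (Cd3e lower, Mki67 higher). Epithelial markers were low and uneven, with Cdx2 at 0 in all 17 tumors, and 0 of 6 tested passed by edgeR and limma voom and 1 by DESeq2 (Krt19, higher). The part of these cells in the levels of the 40 genes was not tested.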

How the data were processed

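The authors deposited, for each gene and tumor, the count of reads on the gene, not normalized, and FPKM. The deposited FPKM equal the count divided by the listed length and the tumor's total (largest relative difference 3.89e-14) and were used for levels between genes. The submitters' processing notes name GRCm38 and mm10, but the positions in the table equal those of GENCODE M21 on GRCm38 for 499 of 21827 shared genes, so none is printed. The aligner, the counting program and the strandedness are not given in the sources used here.

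Tumors were grouped by their labels. Counts of all genes were fitted with edgeR 4.0.16 in R 4.3.3 (filterByExpr, TMM, quasi-likelihood F test, group as the only term), with p values adjusted by the Benjamini-Hochberg method over 13005 genes. SEs were obtained from the F statistic and the estimated log2 fold change. CPM are TMM-normalized, and log2 CPM have a prior count of 2. Exact permutation tests were two-sided and ran over all 24310 splits of the tumors into 9 and 8 (smallest p 4.11e-05), or all splits into 9 and 5 without Cryo replicates 2, 4 and 5. Correlations had two-sided permutation tests with 100000 resamples (smallest p 1e-05). No 2 tumors held the same counts. The scripts were tested on simulated counts.

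All 40 genes are named. Full statistics were given for members with an unadjusted p under 0.05 and for Hspa5, Atf4, Ddit3, Hspa1a, Hspa1b and Serpinh1. The plan was to name at most 2 genes from each other list. More were named from the immediate-early, neutrophil, plasma cell and wider integrated stress response lists. The 40 genes, the lists and the tests were chosen with earlier results of these data known. Alternatives were DESeq2 1.42.0, voom of limma 3.58.1 with quality weights per tumor, a replicate block, upper-quartile normalization, length offsets (natural spline with 4 degrees of freedom), no filter, a mean of at least 10 counts, leaving out each tumor, leaving out Cryo replicates 2, 4 and 5, and, for correlations, variance-stabilized values and a prior count of 0.5. The correlations without the length trend or without those 3 tumors, the fit without them and with length offsets, the shares of all genes beside correlations with the length slope, and the counts of the lists under other fits, were added after the data were seen. At these depths 3 counts are 0.168 to 0.222 CPM of the total.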

Additional observations from a re-analysis of the deposited data

Results flagged for a closer look

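In 5 of 80 checks (40 genes in each group), the highest tumor stood apart from the rest of its group by Dixon's 95% criterion, and chance gives about 1 in 20. Pdia4 in Con replicate 4 had 233 CPM, against 147 to 178 CPM in the other 8. Hsp90ab1 in Con replicate 1 had 5070 CPM, against 4057 to 4490 CPM, and Hspb1 in the same tumor 11.7 CPM, against 3.89 to 6.18 CPM. Atf4 in Cryo replicate 4 had 773 CPM, against 389 to 515 CPM in the other 7, and Hsf1 in Cryo replicate 5 had 124 CPM, against 80.2 to 98.1 CPM.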

How the results depend on the processing

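The count of genes with an unadjusted p under 0.05 was 1 of 40 and (beside 4.91% of all genes) became 2 with DESeq2 (Ddit3 and Manf, beside 6.77%), 4 with limma voom (Ddit3 higher, Chac1, Dnajc3 and Sel1l lower, beside 10.1%), 4 with length offsets (Ddit3 and Manf higher, Chac1 and Sdf2l1 lower, beside 5.44%), 4 without Cryo replicates 2, 4 and 5 (Hsp90b1 higher, Asns, Chac1 and Trib3 lower, beside 2.45%) and 5 without these 3 and with length offsets (the same 4 and Hspa1b higher, beside 3.12%), a fit added after the data were seen. With the replicate number as a block it was 1 (Ddit3, 0.70, p = 0.0239, beside 3.39%), and the block changed no call; samples with the same number deviated together by over 0.1 in 4 of 8 pairs (-0.51 to 0.642), and 2 Con tumors correlated best with their own number, so the numbers were not taken as pairs. Leaving out each tumor in turn gave 1 to 5 genes: 5 without Con replicate 1 (Ddit3, Hspb1, Hspe1 and Manf higher, Dnajc3 lower, beside 9.89%), 3 without Con replicate 5 or Cryo replicate 3, 6 or 7 (beside 9.61% to 10.6%), 2 without Con replicate 6 or Cryo replicate 1 or 8 (beside 3.56% to 5.51%), and 1 without Cryo replicate 5 (beside 2.18%), which was Chac1 and not Ddit3. The number past the study's threshold was 0 to 1, the 1 being Ddit3 without Con replicate 5, Cryo replicate 3 or Cryo replicate 6. Ddit3 ran from 0.57 to 1.06 when 1 tumor was left out and was 0.49 with limma voom.

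Some log2 fold changes changed sign, among them those of Manf (0.60), Hspe1 (0.42), Creld2 (0.27) and Pdia6 (0.26) without the 3 tumors. With DESeq2 this was Xbp1 (0.0034), and with upper-quartile normalization Sdf2l1 (-0.02), Atf4 (-0.0079), Trib3 (-0.0032) and Hsp90ab1 (-0.0049). With the replicate block it was Dnajb9 (-0.00092), Sdf2l1 (-0.048), Trib3 (-0.048) and Hspa1b (-0.034). With limma voom it was Hspa5 (0.05), Hsp90b1 (0.093), Sdf2l1 (-0.0086), Atf4 (-0.045), Trib3 (-0.39), Asns (-0.17), Hsp90aa1 (0.0029), Hsph1 (0.02), Dnajb1 (0.0087), Bag3 (0.089) and Serpinh1 (0.088). With length offsets it was Hspa5 (0.033), Hsp90b1 (0.0058), Canx (0.019), Sdf2l1 (-0.25), Atf4 (-0.064), Atf6 (0.071), Trib3 (-0.12), Asns (-0.017), Hsp90aa1 (0.0067), Hsp90ab1 (-0.011) and Dnaja1 (0.024). Without Cryo replicates 2, 4 and 5 it was Hsp90b1 (0.17), Calr (-0.065), Canx (0.066), Pdia3 (-0.056), Pdia6 (-0.10), Dnajb11 (-0.066), Sdf2l1 (-0.30), Creld2 (-0.081), Manf (-0.22), Hyou1 (0.023), Atf4 (-0.15), Atf6 (0.11), Ern1 (0.008), Eif2ak3 (0.096), Trib3 (-0.56), Asns (-0.32), Hspa8 (-0.22), Hsp90ab1 (-0.015), Hsph1 (0.086), Bag3 (0.045), Hsf1 (-0.045), Hspd1 (0.022) and Hspe1 (-0.10). Without these tumors and with length offsets it was Hsp90b1 (0.20), Calr (-0.0019), Canx (0.075), Pdia3 (-0.0015), Pdia6 (-0.071), Dnajb11 (-0.012), Sdf2l1 (-0.15), Manf (-0.18), Hyou1 (0.008), Herpud1 (0.013), Atf4 (-0.066), Atf6 (0.07), Eif2ak3 (0.092), Trib3 (-0.45), Asns (-0.25), Hspa8 (-0.20), Hsp90aa1 (0.017), Hsph1 (0.069), Dnajb1 (0.043), Bag3 (0.12), Hsf1 (-0.07), Hspd1 (0.099) and Serpinh1 (0.0007). The correlations of Hspa5 with Sdf2l1 (-0.13), Atf4 with Ddit3 (-0.11), Ddit3 with Chac1 (-0.24) and Serpinh1 with Col1a1 (-0.033) changed sign after removal of the length trend, and the last also without these 3 tumors (-0.23). The cause was not tested.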
